A study of Sus scrofa with 4 samples.

Results

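STMN2, NEFL, NEFM, NEFH, LGI2, TMC3, UCHL1 and CHGA are genes best known from neurons or from hormone-storing cells, and they were examined here in whole pig ovary with and without leptin overexpression. They are 8 of the 22309 genes in the deposited table. A match of the symbol column found 7 of them. NEFM, whose symbol was left blank, was found by the NCBI gene number in its description. The 8 were chosen with the difference between the genotypes in view, so their own values in that comparison are a description and not a test. A description of the set as neuronal-type genes raised with leptin fits the values of 5 of the 8. The groups of NEFH and CHGA overlapped, and UCHL1 differed by little.

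Polyadenylated RNA of 4 ovary samples taken in diestrus was sequenced, 2 of wild type (WT) sows and 2 of leptin overexpression sows. The leptin overexpression line goes back to a single cloned pig, C013. That pig was cloned again, the cloned males were crossed with Duroc/Landrace/Yorkshire sows, and the animals described are the F2 generation. The promoter of the transgene, the ages and the breed of the WT sows are not given in the sources used here, nor is it stated that the samples of a group are separate animals, so the spread between replicates may be technical. LEP, the overexpressed hormone gene, had 0 counts in WT replicate 1, 3 in WT replicate 2, 55 in leptin overexpression replicate 1 and 124 in replicate 2, which fits the labels. Paired values below keep this order of replicates, and the libraries of the leptin overexpression sows are called the leptin libraries.

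Total counts were 16493113 to 16797511 per library. Levels are CPM values, counts scaled to a common library total, after TMM, a method that sets libraries to a common level through their bulk of genes. The TMM factors ran from 1.34 in WT replicate 1 to 0.809 in leptin overexpression replicate 2. The share of counts from mitochondrially encoded genes was 6.89% and 12.9% for WT and 15.1% and 16.4% for leptin. It was thus higher in both leptin libraries, but WT replicate 2 lay closer to leptin overexpression replicate 1 than to WT replicate 1. The part of this share in the results was not tested. A count of 0 allows a level of up to 0.136 to 0.224 CPM (3 counts), and this limit covers counting error only. The steroid-making genes STAR, CYP11A1 and HSD3B1, which mark luteal and thecal tissue, were at 3819 CPM or more in every library. Their levels were not equal, and WT replicate 1 was the lowest library in CPM for each of them. On the deposited FPKM scale, explained below, this held for STAR and CYP11A1 but not for HSD3B1. HSD3B1 was at 5028 and 5320 FPKM in WT libraries and 4754 and 4085 in leptin libraries. The summed level of 6 luteal markers, these genes included, was 19804.7 and 43725.1 CPM in WT libraries. In leptin libraries it was 41045.6 and 44987.5 CPM, so WT replicate 1 stood apart. Over all genes tested, log2 CPM of the WT libraries had a correlation of 0.917 with each other. The correlation was 0.941 between WT replicate 2 and leptin overexpression replicate 1, and 0.936 between the leptin libraries. The part of these differences between libraries in the results was not tested. All 5 oviduct epithelium markers and all 4 surface epithelium markers found were lower in both leptin overexpression libraries than in either WT library. Among all genes tested this held for 22.9%. Summed levels were 444 and 230.0 CPM in WT libraries and 28.7 and 20.4 in leptin libraries for oviduct. For surface epithelium they were 134 and 81.0 against 3.78 and 9.70 CPM.

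In a neuron, the axon is held open by microtubules and by neurofilaments. Neurofilaments are intermediate filaments that assemble from a light, a medium and a heavy subunit, the last of which carries a long side arm. Stathmins bind tubulin and keep microtubules dynamic, and STMN2 is the member of growing axon tips. The ovary receives sympathetic and sensory nerve fibres whose cell bodies lie outside it, so most messenger RNA of those neurons is not taken along when the organ is removed. Several genes of neurons are also used by endocrine cells and oocytes.

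STMN2 (ENSSSCG00000006160) was nearly absent in WT, with 5 counts in each library, and had 572 and 473 counts in leptin overexpression. Scaled, the levels were 0.227 and 0.298 CPM in WT libraries and 37.3 and 35.3 CPM in leptin libraries. Both leptin overexpression libraries lay far above both WT libraries, and they differed from each other by little. The fitted log2 fold change, leptin overexpression minus WT, was 7.09 (SE 0.53, n = 2 per group). Its relative STMN1, the stathmin of dividing cells, was abundant in all 4 libraries, at 99.1 and 106 CPM in WT libraries and 177 and 141 CPM in leptin libraries (log2 fold change 0.63, SE 0.38, edgeR adjusted p = 0.601). STMN3 and STMN4, the other neuronal stathmins, had at most 9 counts in any library and were not tested. On the deposited FPKM scale, which divides counts by transcript length and depth so that genes can be compared, STMN2 reached 16.95 and 14.02 FPKM in leptin libraries, against 194 and 134 FPKM for STMN1 in the same libraries.

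NEFL (ENSSSCG00000009649), the light neurofilament chain that forms the core of the filament, was at 0.771 and 0.358 CPM in WT libraries and at 39.5 and 50.6 CPM in leptin libraries. Its log2 fold change was 6.27 (SE 0.55). NEFM (ENSSSCG00000009648), the medium chain, was at 0.680 and 4.17 CPM in WT libraries and at 21.5 and 41.7 CPM in leptin libraries, a log2 fold change of 3.72 (SE 0.83). The groups of NEFM did not overlap, but WT replicate 2 was 6.14 times as high as WT replicate 1, and the log2 fold change of NEFM was 5.49 with WT replicate 2 left out and 2.89 with WT replicate 1 left out. NEFH (ENSSSCG00000009979), the heavy chain, had 1 and 11 counts in WT libraries and 18 and 5 in leptin libraries, or 0.0453 and 0.656 against 1.17 and 0.373 CPM. These groups overlapped, and the log2 fold change of NEFH, 1.18, was smaller than its SE of 1.29; it was 0.13 without leptin overexpression replicate 1, 0.23 with WT replicate 1 left out and 3.88 with WT replicate 2 left out.

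The subunits can be set against each other on the length-scaled FPKM values. NEFL was at 0.27 and 0.10 FPKM in WT libraries and 9.73 and 10.89 in leptin libraries. NEFM was at 0.25 and 1.30 FPKM in WT libraries and 6.35 and 10.56 in leptin libraries, and NEFH stayed at or below 0.30 FPKM in all 4 libraries. In leptin overexpression the level of NEFL was 1.53 and 1.03 times that of NEFM. Light and medium chain were thus closer to each other there than to the heavy chain, which had 18 and 5 counts. The low FPKM values in WT, and those of NEFH in all libraries, are too coarse for such ratios.

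**Figure D1:**
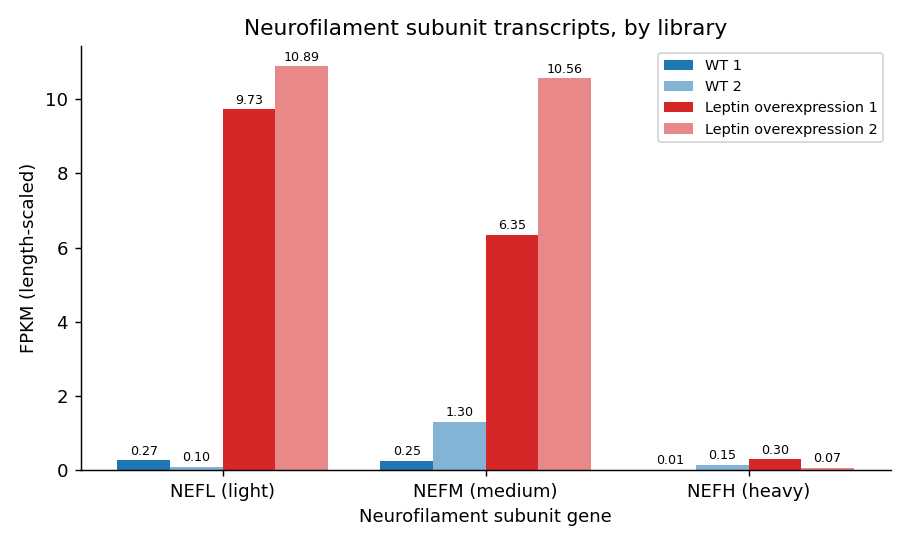
Deposited FPKM values (length-scaled, vertical axis) of the neurofilament subunit genes in each of the 4 libraries; each bar is 1 library, blue for WT and red for leptin overexpression. NEFL and NEFM reach 6.35 to 10.89 FPKM in leptin overexpression and at most 1.30 in WT, and NEFH does not pass 0.30 in any library.

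LGI2 (ENSSSCG00000028927), a secreted leucine-rich repeat protein whose family binds ADAM receptors at synapses, was at 1.18 and 2.44 CPM in WT libraries and at 42.9 and 67.6 CPM in leptin libraries. The groups were well apart, and replicate 2 was the higher library in each (log2 fold change 4.94, SE 0.54). TMC3 (ENSSSCG00000001789), a transmembrane channel-like protein related to the channel subunits of inner-ear hair cells, had 1 count in each WT library and 95 and 96 in leptin overexpression. With so few WT counts the size of this difference is uncertain. The ratio of the pooled counts per scaled library size was 129, with an exact 95% counting interval of 35.3 to 1074. That interval leaves out the spread between replicates. The fitted log2 fold change was 6.82 (SE 0.89).

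Counts of TMC3 were almost equal in the leptin overexpression libraries, but its deposited FPKM values were 0.82 and 1.33. The ratio of count to FPKM, which follows the transcript length the authors' estimate used, was 116 in replicate 1 and 72.2 in replicate 2. Replicate 2 was thus at 0.623 of replicate 1. Over 11707 genes with at least 20 counts in both libraries and over 0.3 FPKM, the median of the same quotient was 1.00, and only 0.154% of genes had a lower one than TMC3. A difference in the mix of TMC3 transcripts was not tested, since values per transcript were not analysed here. For STMN2, NEFL and LGI2 the ratio of count to FPKM was equal in both leptin overexpression libraries within rounding (33.7 and 33.7, 62.3 and 62.3, 36.5 and 36.5).

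UCHL1 (ENSSSCG00000022945), a ubiquitin hydrolase that is abundant in neurons and also known from oocytes, was the most abundant of the 8 in every library. It was at 109 and 240.0 CPM in WT libraries and at 269 and 323 CPM in leptin libraries. These groups did not overlap, but WT replicate 2 lay closer to leptin overexpression replicate 1 than to WT replicate 1, and the log2 fold change was 0.76 (SE 0.48), or 0.28 with WT replicate 1 left out and 1.41 with replicate 2 left out. On the FPKM scale UCHL1 was at 101 and 175 in WT libraries and 181 and 184 in leptin libraries. Of 11 oocyte markers 7 were tested, and 2 had 0 counts in every library. Both leptin overexpression libraries were above both WT libraries for 0 of the 7, against 22.2% of all genes tested. The summed level of the 11 was 204 and 130.4 CPM in WT libraries and 71.7 and 91.2 CPM in leptin libraries. Much of this was KIT, which other ovarian cells express too. Without it the sum was 143 CPM in WT replicate 1 and 23.8, 21.7 and 24.8 CPM in the other libraries, so WT replicate 1 alone stood apart. The part of oocytes in the level of UCHL1 was not tested. CHGA (ENSSSCG00000002456), chromogranin A, which packs hormones into dense-core vesicles, was at 54.6 and 30.8 CPM in WT libraries and at 101 and 36.6 CPM in leptin libraries. Replicate 1 was the higher library in both groups and the groups overlapped (log2 fold change 0.69, SE 0.52). Without leptin overexpression replicate 1 the log2 fold change of CHGA was -0.20. On the FPKM scale it was at 30.5 and 12.8 in WT libraries and 39.0 and 12.4 in leptin libraries, so CHGA cannot be called higher with leptin.

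**Figure D2:**
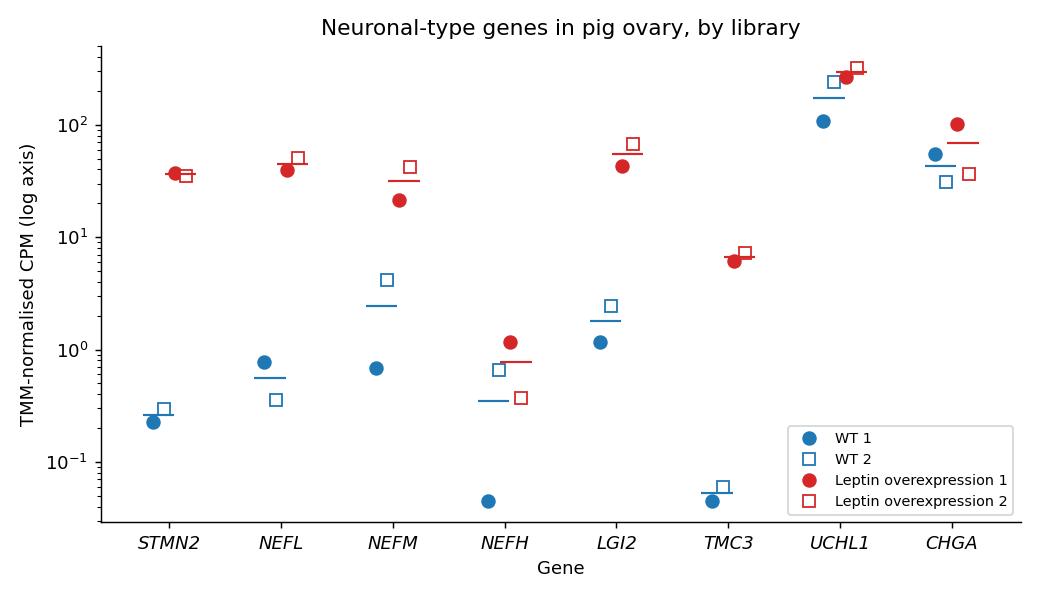
TMM-normalised CPM (log axis) of the 8 genes in each library, blue for WT and red for leptin overexpression, with filled circles for replicate 1, open squares for replicate 2 and a short line for each group's mean. STMN2, NEFL, NEFM, LGI2 and TMC3 are well separated by genotype, UCHL1 is narrowly separated, and the libraries of NEFH and CHGA interleave.

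Read as a set, 6 of the 8 genes had both leptin overexpression libraries above both WT libraries, as had 22.2% of all 13937 genes tested. On the FPKM scale it was also 6 of the 8, against 6.85% of all genes. The log2 fold change reached that of NEFM or more in 5 of the 8 and in 0.258% of all genes. EdgeR's quasi-likelihood test over all genes, with a Benjamini-Hochberg adjusted p under 0.05, called STMN2, NEFL and LGI2, which are 3 of the 4 genes it called higher (0.0287% of those tested); it called 0 lower, against 741 lower and 563 higher at an unadjusted p under 0.05. The genes were chosen on this comparison, so nothing is read from these counts. Without leptin overexpression replicate 1, or without replicate 2, the test called 0 of the 8. The median log2 fold change of the 8 was 4.33, and that of all genes tested -0.012. Ovary RNA is a mixture, and more cells of a type and more RNA per cell cannot be told apart in it.

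Genes of the same families and of nerve-related cell types, listed with earlier results of these data known, were tested in the same fit. In all, 193 genes in 11 lists were set out, 182 matched a row and 132 were tested. Of these 132, 0 passed edgeR's adjusted threshold, while 5 were higher and 7 lower at an unadjusted p under 0.05; the shares among all genes tested were 4.04% and 5.32%. Both leptin overexpression libraries were above both WT libraries for 24 and below them for 31 (22.2% and 22.9% among all genes). This balance belongs to the TMM scaling. On the deposited FPKM values, 6 were above and 51 below (6.85% and 39.7% among all genes), and the 6 were MAP1B, MAP6, LGI3, CYB561, MAOB and NTRK3. On either scale the shares were near those of all genes. Values were above 0 for 58 of the 132, against 49.3% of all genes tested, and the median log2 fold change was -0.17. Medians of single lists, given below with their range when 1 library at a time was left out, moved by over 1.5 times or changed sign in each of the 11 lists. On log2(FPKM + 1), where the median of all genes was -0.30, they were lower than with TMM in most lists as well. With DESeq2, 3 of them were called, DES, LGI3 and NTRK3; without WT replicate 1 edgeR called 5 and without WT replicate 2 it called 6.

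Among intermediate filament genes and their partners, 10 were tested, 4 with values above 0 and 6 below, and 0 passed (median log2 fold change -0.50, and -1.13 to -0.30 with 1 library left out). INA, the internexin that joins neurofilaments in central neurons, had 0 counts in WT and 1 in each leptin overexpression library. PRPH, the peripherin of peripheral neurons, had 3 and 44 counts in WT libraries and 2 and 0 in leptin libraries. VIM, the filament of stromal cells, was at 2317 and 2014 CPM in WT libraries and 2435 and 2131 in leptin libraries. DES, the muscle filament, was lower in both leptin overexpression libraries (41.6 and 107 against 17.7 and 23.7 CPM; edgeR adjusted p = 0.273). So were the filament linkers PLEC and DST, with log2 fold changes of -1.19 (SE 0.74) and -0.64 (SE 0.48). DES is also 1 of the 5 smooth muscle markers. The 4 others were lower in both leptin overexpression libraries too, as were 22.9% of all genes tested. Their summed levels were 1067 and 996 CPM in WT libraries and 426 and 672 in leptin libraries. Their part in the value of DES was not tested.

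Of 17 tested stathmins, tubulins and microtubule-associated proteins 8 had values above 0 and 9 below, and 0 passed (median -0.23, and -0.059 to 0.19 with 1 library left out, so without a direction). MAP1B, a microtubule linker of growing axons, was at 73.7 and 139 CPM in WT libraries and 189 and 206 in leptin libraries. MAP6, which stabilises microtubules, was at 6.39 and 10.2 against 16.6 and 14.03 CPM, and MARCKS, an actin and membrane regulator, at 218 and 226 against 343 and 355 CPM. The groups of these 3 did not overlap, with log2 fold changes of 0.89 (SE 0.43), 0.89 (SE 0.45) and 0.65 (SE 0.40) and edgeR adjusted p of 0.564, 0.565 and 0.607, but on FPKM those of MARCKS overlapped. MAP4, the general microtubule-associated protein, was at 351 and 444 against 404 and 208 CPM. TUBB3, the neuronal tubulin, had 9 and 13 counts in WT and 0 in both leptin overexpression libraries. GAP43, the growth-cone protein often studied beside STMN2, was at 1.41 and 1.55 CPM in WT libraries and 0.783 and 0.896 in leptin libraries.

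Within the family of LGI2, LGI3 was at 8.07 and 22.1 CPM in WT libraries and at 81.5 and 70.2 CPM in leptin libraries (log2 fold change 2.33, SE 0.51, edgeR adjusted p = 0.218). LGI4, which Schwann cells need for myelination, was at 3.58 and 3.04 CPM in WT libraries and at 0.717 and 0.448 CPM in leptin libraries (log2 fold change -2.49, SE 0.81, edgeR adjusted p = 0.377). LGI1 was at 5.62 and 4.05 against 4.89 and 3.81 CPM, groups that overlapped. The receptor ADAM11 was at 11.8 and 18.0 CPM in WT libraries and 5.09 and 0.149 in leptin libraries, while ADAM22 and ADAM23 overlapped between the groups (log2 fold changes 0.63, SE 0.81, and -0.27, SE 0.67). Of the 7 tested, 0 passed (median -0.27, and -0.65 to -0.37 with 1 library left out). In the TMC family 5 genes were tested with partners and 0 passed (median -0.39, and -0.32 to -0.049 with 1 library left out). TMC6 was at 35.8 and 37.0 CPM in WT libraries and 33.7 and 14.6 in leptin libraries, CIB2, a partner of hair-cell channels, at 27.0 and 28.3 against 23.2 and 19.0, and TMC4 at 7.43 and 0.656 against 1.37 and 0.149. TMC7 and TMC8 had log2 fold changes of 0.040 (SE 0.66) and 0.14 (SE 0.54). TMC1, a channel subunit of hair cells, had 7 and 5 counts in WT libraries and 9 and 36 in leptin libraries and was not tested.

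Of the 8 ubiquitin genes set beside UCHL1, 7 had values above 0, and 0 passed (median log2 fold change 0.54, 0.088 on log2(FPKM + 1), and 0.19 to 0.88 with 1 library left out). Of these, 6 had both leptin overexpression libraries above both WT libraries in CPM and 0 in FPKM. Among all genes tested the shares were 22.2% and 6.85%. UCHL5, a hydrolase of the proteasome, was at 30.0 and 27.7 CPM in WT libraries and 42.6 and 97.2 in leptin libraries (edgeR adjusted p = 0.425). UCHL3 was at 15.2 and 23.1 against 23.6 and 45.6 CPM. UBB, which encodes a ubiquitin chain, was at 772 and 857 against 884 and 997 CPM, but at 1158 and 960 against 917 and 904 FPKM, the other direction.

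Chromogranins and the enzymes that cut and amidate prohormones share the vesicles of CHGA. Of 15 tested granin and dense-core vesicle genes 9 had values above 0 and 6 below, and 0 passed (median 0.017, -0.072 with upper-quartile scaling, and -0.26 to 0.65 with 1 library left out). CHGB, the second chromogranin, was at 0.725 and 9.06 CPM in WT libraries and 13.7 and 8.58 in leptin libraries. PCSK1, the prohormone convertase, was at 0.499 and 108 CPM in WT libraries and 15.1 and 3.88 in leptin libraries, a 1-library excess within WT. SCG5 and PAM, the most abundant of the list, were at 26.7 and 57.1 against 32.4 and 52.4 CPM for the former and 222 and 408 against 419 and 414 CPM for the latter. SCG3 was at 0.635 and 1.01 against 0.978 and 4.18 CPM.

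Most defining markers of chromaffin cells and of neurons were at or near 0. TH, DBH and PNMT, the enzymes that make noradrenaline and adrenaline, had 0 counts in all 4 libraries. The summed level of the 5 chromaffin markers was 1.41 and 10.1 CPM in WT libraries and 14.9 and 9.18 CPM in leptin libraries, most of it CHGB, and SLC18A1, the amine transporter of chromaffin vesicles, had 8 to 18 counts per library. The summed level of the 8 neuron markers was 2.31 and 3.70 CPM in WT libraries and 1.37 and 1.94 CPM in leptin libraries, with 1, 4, 3 and 6 of the 8 at 0 counts. RBFOX3 and ELAVL3, pan-neuronal RNA-binding proteins, had 4 counts each in WT replicate 1 and 0 in the other libraries. SYT1, the calcium sensor of synaptic vesicles, was the marker with both leptin overexpression libraries above WT, at 4 and 2 counts against 9 and 17. Across the longer list of neuronal and synaptic genes, 22 were tested, 5 with values above 0 and 17 below, and 0 passed (median log2 fold change -0.55, and -0.55 to -0.33 with 1 library left out). SYP and RTN1, of synaptic vesicles and of neuronal endoplasmic reticulum, were at 5.89 and 1.55 against 0.457 and 1.12 CPM for the former and 5.03 and 2.33 against 1.11 and 0.821 CPM for the latter. THY1, a surface protein of neurons and of fibroblasts, was at 52.9 and 146 against 50.3 and 23.1 CPM. The highest log2 fold change of this list, 2.76 (SE 0.54), was that of NTRK3. That gene is also in the list of nerve growth factors and receptors below.

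The catecholamine list held genes of wider use beside those enzymes. CYB561, a vesicle cytochrome, was at 63.5 and 134 CPM in WT libraries and 195 and 280.3 in leptin libraries, and MAOB, which degrades amines, was at 141 and 111 against 219 and 285. EdgeR adjusted p was 0.481 and 0.516, and 0 of the 7 tested passed (median 0.35, -0.029 on log2(FPKM + 1), and -0.029 to 0.82 with 1 library left out). HAND2, a transcription factor of sympathetic neurons and of uterine and ovarian stroma, had 12 counts in each WT library and 0 in both leptin overexpression libraries (edgeR adjusted p = 0.366).

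Schwann cells and satellite glia wrap the axons and bodies of peripheral neurons. Of 8 tested Schwann cell and satellite glia genes 2 were above 0 and 6 below, and 0 passed (median -0.68, and -0.92 to -0.34 with 1 library left out). SOX10, the factor that defines these cells, had 7 and 9 counts in WT and 0 in both leptin overexpression libraries. MBP, of myelin, was at 21.3 and 19.4 against 11.2 and 9.48 CPM. ERBB3 and PMP22, which other ovarian cells express too, were at 153 and 133 against 203 and 269 CPM for the former and 44.6 and 64.4 against 55.2 and 65.5 CPM for the latter.

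REST is the repressor that keeps neuronal genes silent outside the nervous system, with a set of co-repressors. It was at 47.7 and 36.7 CPM in WT libraries and at 44.1 and 40.3 CPM in leptin libraries, groups that overlapped (SE of the log2 fold change 0.36, edgeR adjusted p = 0.9997). All 14 genes of the list were tested and 0 passed (median -0.033, -0.42 on log2(FPKM + 1), and -0.38 to 0.11 with 1 library left out). HDAC1 and HDAC2, the deacetylases of the complex, were at 89.3 and 113 against 127 and 147 CPM for the former and 60.6 and 48.1 against 65.6 and 157 CPM for the latter. CTDSP2, a phosphatase that stabilises REST, was at 228 and 216 against 171 and 110 CPM.

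Among nerve growth factors, guidance factors and their receptors 24 were tested, 9 above 0 and 15 below, and 0 passed (median -0.22, and -0.71 to -0.095 with 1 library left out). NTRK3, the receptor of neurotrophin 3, was at 18.9 and 13.2 CPM in WT libraries and 56.7 and 162 CPM in leptin libraries. It had the highest log2 fold change of the 132 tested genes of all lists (2.76, SE 0.54, edgeR adjusted p = 0.209). SEMA3A, an axon-repelling guidance protein, was at 9.02 and 28.6 against 29.2 and 63.9 CPM, and PLXND1, a semaphorin receptor of vessels, at 198 and 230 against 166 and 60.5 CPM. SORT1 was at 60.3 and 179 against 156 and 107 CPM.

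**Figure D3:**
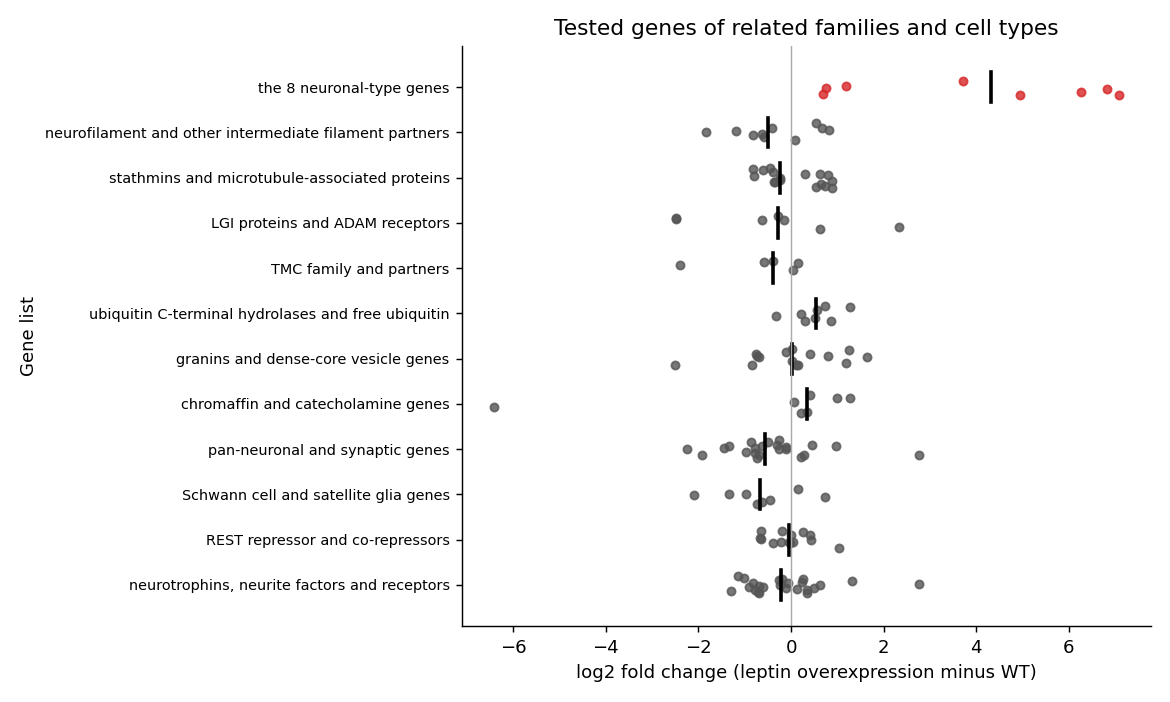
Log2 fold changes (horizontal axis, leptin overexpression minus WT) of the 8 genes in red and of the tested genes of 11 related lists in grey; each point is a gene, with random vertical scatter, and each black bar is a median. The medians of the lists lie between -0.68 and 0.54, and the point near -6 is HAND2, which had 0 counts in leptin overexpression.

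Position was examined through the neighbours in gene order, taken from RefSeq's Sscrofa11.1 annotation without coordinates, since the build of the deposited files is not given in the sources used here. NEFM and NEFL are next to each other among protein-coding genes, and they are the sole pair of the 8 that are neighbours. The nearest 2 protein-coding genes on each side of the 8 came to 28 other genes, of which 27 had a row and 23 were tested. Values were above 0 for 12 and below for 11, and 0 passed edgeR's adjusted threshold or that of DESeq2; at an unadjusted edgeR p under 0.05, 0 passed as well. Without WT replicate 2, edgeR called 1 of them, ADAM7. DOCK5 and ADAM7, which flank the neurofilament pair, were at 70.7 and 52.8 against 76.3 and 61.7 CPM for the former and 114 and 1079 against 776 and 463 CPM for the latter. GNRH1, beyond DOCK5, had 0 counts in all libraries. Beside STMN2, HEY1, a Notch target, was at 5.58 and 10.4 against 8.61 and 11.05 CPM, and IL7, a lymphocyte growth factor, at 1.04 and 0.358 against 0.326 and 7.31 CPM. IL7 had the highest value of the neighbours (log2 fold change 2.41, SE 1.30, edgeR adjusted p = 0.582) and rests on leptin overexpression replicate 2. SEPSECS and CCDC149, beside LGI2, were at 7.61 and 7.15 against 5.54 and 13.5 CPM for the former and 35.5 and 31.1 against 23.2 and 22.9 CPM for the latter, and STARD5, beside TMC3, at 3.35 and 8.29 against 9.72 and 11.6 CPM. SOD3, beyond CCDC149, was at 19.7 and 36.0 against 79.9 and 36.4 CPM (log2 fold change 1.06, SE 0.49, edgeR adjusted p = 0.547). Its groups overlapped on the FPKM scale.

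**Figure D4:**
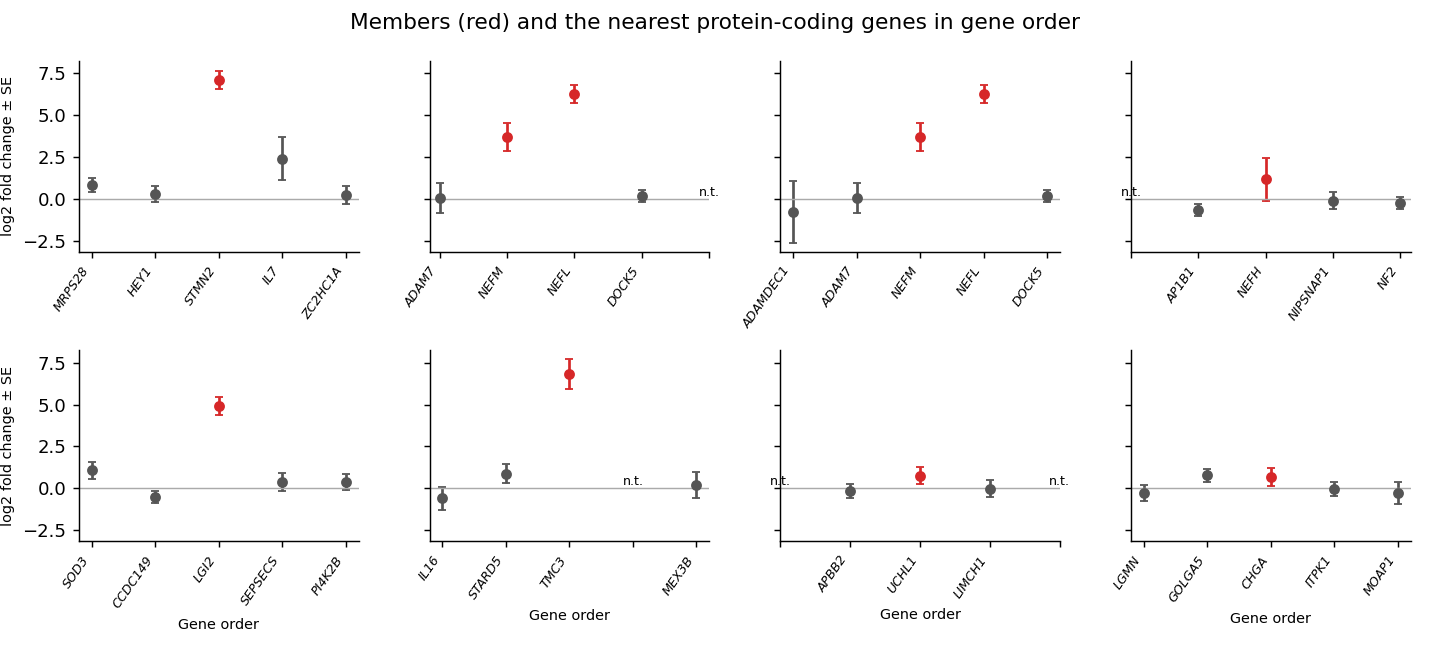
Log2 fold change with SE (vertical axis) of each of the 8 genes, at the centre of its panel, and of the nearest 2 protein-coding genes on each side in gene order (not to scale); the 8 genes are red, other genes grey, and n.t. marks a gene that was not tested, which is shown without its name. Grey values run from -0.79 to 2.41, and the neurofilament pair NEFM and NEFL are the red points side by side.

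The genes whose pattern over the 4 libraries was most like that of STMN2 were ranked by Euclidean distance in centred log2 CPM among 10429 named genes of at least 5 CPM; this ranking uses the same contrast and is a description. NEFL ranked 1 (distance 1.01), LGI2 ranked 3 (1.84) and NEFM ranked 6 (3.07). LOC100520618, described in the deposited table as ornithine decarboxylase-like, ranked 2 (1.39), with 0.952 and 2.27 CPM in WT libraries and 350 and 371 in leptin libraries. The others were CHST4, a sulfotransferase; RFLNA, a filamin-binding protein; PTX3, a matrix pentraxin of the cumulus; IBSP, a bone matrix sialoprotein; CPS1, an enzyme of the urea cycle; and AQP9, a water and glycerol channel. CHST4 was at 0.227 and 1.01 against 9.91 and 8.96 CPM, and RFLNA at 8.70 and 49.1 against 281 and 615 CPM. IBSP was at 25.0 and 79.7 against 410.0 and 566 CPM, CPS1 at 3.35 and 14.1 against 67.5 and 78.8, and AQP9 at 18.4 and 47.7 against 173 and 435. In these and in PTX3, RFLNA, CHST4, LOC100520618, LGI2 and NEFM, WT replicate 2 lay above WT replicate 1. STMN2, NEFL and TMC3 hardly show this step or show it the other way. UCHL1 and CHGA ranked 784 and 2476. NEFH and TMC3 fell under the minimum of 5 CPM and were not ranked.

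**Figure D5:**
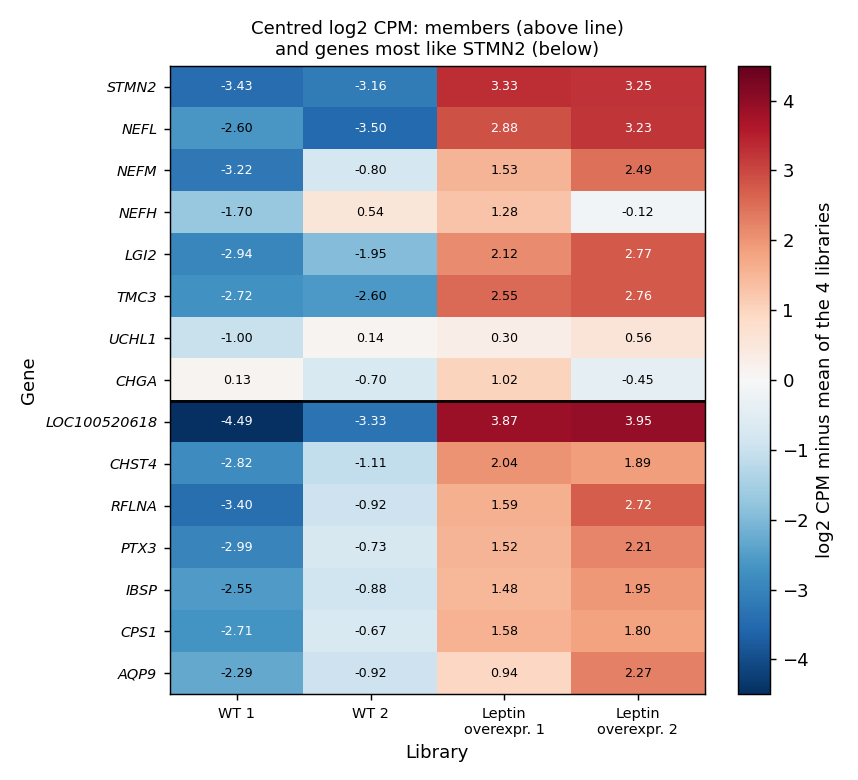
Log2 CPM minus the mean of the 4 libraries (colour and printed value) for the 8 genes above the line and for the 7 other genes among the 10 most like STMN2 below it; columns are libraries. STMN2 runs from -3.43 in WT replicate 1 to 3.33 in leptin overexpression replicate 1, and UCHL1 from -1.002 to 0.56.

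In the gene ontology terms of the deposited table, 6 of the 8 genes had any term, and 4 of these, STMN2, NEFL, NEFH and UCHL1, had a term naming the axon, the neuron or the neurofilament. Of all 13811 genes with a term, 7.96% had such a term. The 8 were chosen as neuronal-type genes, so nothing is read from this difference. NEFL, NEFM and NEFH were assigned to the pathway of amyotrophic lateral sclerosis, and UCHL1 to that of Parkinson disease.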

How the data were processed

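The authors deposited expected counts per gene, which are estimated, need not be whole and are not scaled to depth, and FPKM values, per the file headers. Per the submitters' processing notes, the tools were Bowtie2 2.2.8, DESeq2, edgeR 3.32.0, fastp 0.18.0, HISAT2, RSEM and StringTie 1.3.1, with no roles given. Neither the build nor a strand setting is given in the sources used here. Whether reads of overlapping genes on opposite strands were told apart is therefore not known. Columns named for controls were matched to WT by number. Symbols came from the table (15153 genes), a gene name table (664) or RefSeq (2222); 4270 genes had none. Where rows shared a symbol, the most abundant Ensembl row was used.

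Counts were rounded. Genes passing filterByExpr (13937) entered the quasi-likelihood test of edgeR 4.0.16 (under R 4.3.3, with TMM, robust estimation, genotype as covariate and 2 residual degrees of freedom), adjusted by Benjamini-Hochberg at 0.05. SE is the absolute log2 fold change over the square root of F. The fit was tested on simulated data. The 8 genes, the 11 lists and the rule for named genes were chosen with earlier results of these data known. The rule named the 8 genes and LEP, the called genes, the 2 most abundant and the 2 of largest change per list (at least 1 CPM), neighbours, markers and the 10 genes most like STMN2 (log2 CPM, prior count 2). Some genes that the rule named are not reported here. INA, PRPH, STMN1, STMN3, STMN4, TUBB3, GAP43, LGI1, ADAM22, ADAM23, CHGB, RTN1, HAND2 and REST were named after their values were seen. Alternatives were RLE and upper-quartile factors, other filters, limma 3.58.1 (voom on counts, and trend on FPKM after adding 1 or 0.1 and taking log2), DESeq2 1.42.0, a replicate block, and each library left out.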

Additional observations from a re-analysis of the deposited data

How the results depend on the processing

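With all libraries edgeR called 4 genes higher and 0 lower, and RLE factors or a filter of 1 CPM gave the same counts. Numbers higher and lower were 7 and 4 with upper-quartile factors, 84 and 168 with no filter, 100 and 205 with DESeq2, 70 and 256 with limma-trend on log2(FPKM + 1), 105 and 413 on log2(FPKM + 0.1), and 1 and 0 with limma-voom. Leaving out 1 library gave 0 to 258 higher and 0 to 423 lower; such a fit takes its spread from the group that keeps 2 samples. Of the genes in the fixed lists 0 were called with all libraries, 3 with no filter, 3 with DESeq2, 5 and 9 on FPKM (the larger with 0.1 added), and 0 to 6 with a library left out. Without WT replicate 2 ADAM7 was called, so neighbours called ranged from 0 to 1. The number of the 8 genes called was 3 with all libraries, 0 with limma-voom and 5 with DESeq2, on FPKM, and without either WT library. The cause of these differences was not tested.

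The replicate number as a block gave 11 higher and 12 lower, and 5 of the 8 genes. Samples of the same number deviated from their group means with a correlation of -0.100 across genes. With 2 samples per group this value cannot show whether samples of the same number were handled together. Of 103 values of the 8 log2 fold changes under alternatives, 84 moved by less than the spread between replicates, 18 moved by more and 1, CHGA without leptin overexpression replicate 1 (-0.20; 1.26 without leptin overexpression replicate 2), reversed. STMN2 ranged from 3.84 to 7.25, NEFL from 3.26 to 6.92, LGI2 from 3.54 to 5.51, NEFM from 2.44 to 5.49, TMC3 from 1.03 to 7.01, NEFH from 0.13 to 3.88 and UCHL1 from 0.28 to 1.41. The lowest values of STMN2, NEFL, LGI2, NEFM and TMC3 were on log2(FPKM + 1), a scale that understates the change of low genes. Medians of all genes were -0.30 and -0.40 on the FPKM scales and -0.11 with upper-quartile factors, so changes there are relative to those. NEFH could not be fitted under the filter of 1 CPM.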
